A study of Homo sapiens with 2 samples.

Results

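PRAME, 8 MAGE genes and SPOCD1 are described here as they were measured in BT549 cells, a long-used line from a human breast tumour. The 10 genes were chosen by name, and 8 of them were among the 19029 genes with values in the authors' deposited table. They are PRAME, MAGEA3, MAGEA6, MAGEA12, MAGED1, MAGED2, MAGEF1 and SPOCD1. MAGEA4 and MAGEC2 were not analysed here. All 8 had a mean of at least 1 CPM (counts scaled to library size), as did 12934 genes in all, which are called the genes compared. The choice was made with the difference between the libraries already known, so the differences of these genes are descriptions and carry no test.

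Messenger RNA was profiled by sequencing from total RNA, per the labels. BT549 cells that overexpressed SNHG15, a long non-coding RNA, were set against BT549 cells carrying a control vector. They are called SNHG15 cells and vector cells. There was 1 library of each, so no difference has a replicate check and no p-value was computed. The sources used here do not say whether either line was 1 clone or a pool. The SNHG15 library held 16570496 counts and the vector library 20799017 counts. Levels are given as CPM scaled by TMM, a method that balances the libraries on the bulk of their genes, and ratios as the SNHG15 library over the vector library. Their 95% intervals are exact conditional-binomial (Clopper-Pearson) intervals of the counts and cover counting error only. SNHG15 itself had 34450 counts in SNHG15 cells and 466 in vector cells, as the labels state.

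Cancer-testis genes are active in germ cells, silent in most adult tissues and switched on again in many tumours, where their proteins can be seen by T cells. Methylation of promoter CpG dinucleotides is the best known means by which they are kept silent. The MAGE family shares a homology domain that binds RING ubiquitin ligases. Its type I genes, among them MAGEA3, MAGEA6 and MAGEA12, lie on the X chromosome and are testis-restricted. Its type II genes, among them MAGED1, MAGED2 and MAGEF1, are widely expressed, so these 3 are not cancer-testis genes in the usual sense. PRAME, an antigen first found in melanoma, is a leucine-rich repeat protein that serves as substrate receptor of a cullin-2 ubiquitin ligase and has been reported to repress retinoic acid receptor signalling. SPOCD1 is known from mouse, where it directs DNA methylation of transposons in the male germline by way of piRNAs.

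PRAME, the type I MAGE members and SPOCD1 were all lower by 1.5-fold or more in SNHG15 cells, while the type II members were not. Genes were counted as lower or higher when they differed by 1.5-fold or more with an interval that left out 1. By this rule 5 of the 8 genes were lower, beside 12.2% of the genes compared, and 1 was higher, beside 13.3%. By the stricter rule that the whole interval lay past 2-fold, 4 of the 8 were lower, beside 2.45%, and 0 were higher, beside 2.2%. MAGEA3 met the first rule and not the second, and by library totals 3 of the 8 were lower by the stricter rule. Scaling by library totals moved the median log2 ratio of all genes up by 0.12, and the split of genes past 2-fold was then 237 lower and 366 higher, against 317 lower and 285 higher with TMM. The members were chosen from the same contrast, so nothing is read from these shares.

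**Figure D1:**
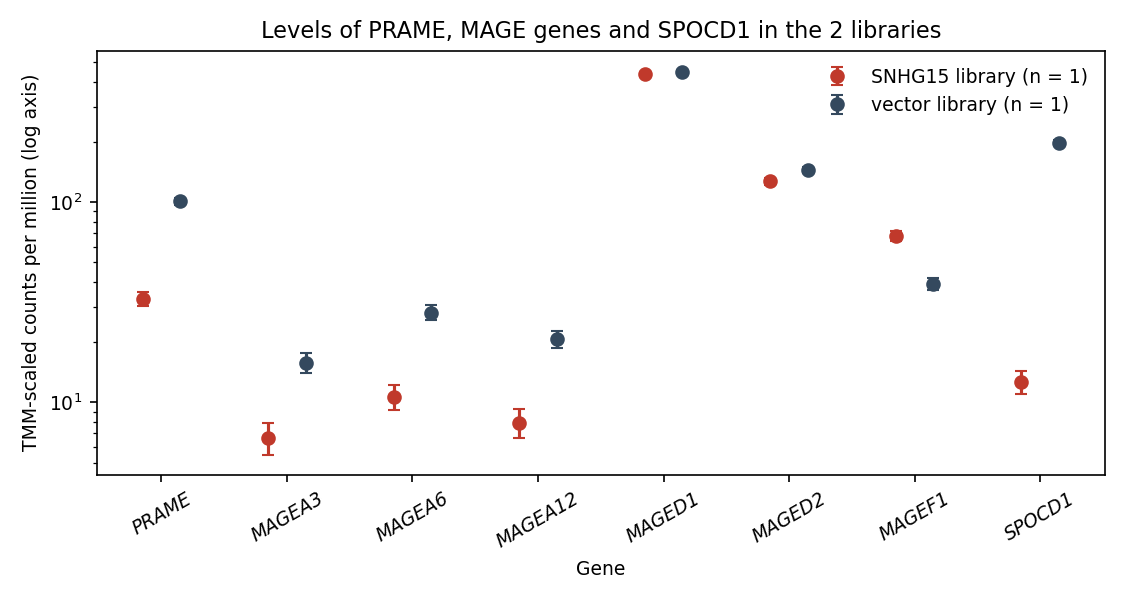
TMM-scaled CPM (log axis) of the 8 genes in SNHG15 cells (red, left of each pair) and vector cells (dark blue, right); points are single libraries and bars are exact Poisson 95% intervals. PRAME, MAGEA3, MAGEA6, MAGEA12 and SPOCD1 sit lower in SNHG15 cells with intervals that do not overlap, and MAGEF1 sits higher. MAGED2 also sits lower without overlap, by less than 1.5-fold (126.9 CPM against 145.0 CPM). MAGED1 lies at 436.2 CPM in SNHG15 cells against 447.2 CPM in vector cells.

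PRAME (ENSG00000185686) is on chromosome 22 (hg38, 22547701 to 22559361, minus strand). It had 567 counts (32.9 CPM) in SNHG15 cells and 2012 counts (100.7 CPM) in vector cells. The ratio was 0.326 (0.297 to 0.358), or 3.07-fold lower. By the authors' FPKM (counts scaled to a gene length and library size), PRAME was at 3.54 FPKM in SNHG15 cells and 9.99 FPKM in vector cells. This placed it above 57.7% and 77.6% of the genes compared. The length behind the FPKM of PRAME exceeds its longest transcript (2831 bases), so such places depend on the lengths the authors used. No stretch of 50 bases of its longest coding transcript recurs in a transcript of another gene in GENCODE 29, so no read of that length is shared without a mismatch. None of the 9 PRAME family paralogs listed had values here.

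MAGEA3 (ENSG00000221867), MAGEA12 (ENSG00000213401) and MAGEA6 (ENSG00000197172) lie within 71.0 kb of each other in the MAGEA cluster at the tip of the long arm of the X chromosome. MAGEA3 is at 152698752 to 152702347 on the plus strand, MAGEA12 at 152733779 to 152737669 on the plus strand, and MAGEA6 at 152766136 to 152769747 on the minus strand. MAGEA3 and MAGEA6 are best known as partners of the ligase TRIM28. MAGEA6 had 183 counts (10.6 CPM) in SNHG15 cells and 561 counts (28.1 CPM) in vector cells, 2.65-fold lower (2.24 to 3.15). MAGEA12 had 136 counts (7.88 CPM) in SNHG15 cells and 412 counts (20.6 CPM) in vector cells, 2.62-fold lower (2.15 to 3.20). MAGEA3 had 114 counts (6.61 CPM) in SNHG15 cells and 315 counts (15.8 CPM) in vector cells, 2.39-fold lower (1.92 to 2.98). The intervals of the 3 ratios overlap each other widely, so their sizes cannot be ranked at this depth.

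How far the counts of these paralogs are separate measurements depends on their sequence. The coding sequences of MAGEA3 and MAGEA6, each 945 bases long, differ at 18 bases (98.1% identity), whereas MAGEA12 differs from MAGEA3 at 74 bases (92.2%) and from MAGEA6 at 73 bases (92.3%). The 60 coding bases (573 to 632 from the start codon) with the most differences between MAGEA3 and MAGEA6 are shown to make this visible, read from GENCODE 29 transcripts, with capitals at bases that differ in any of the 3 genes.
MAGEA3: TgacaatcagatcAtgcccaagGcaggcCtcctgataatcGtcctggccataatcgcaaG
MAGEA6: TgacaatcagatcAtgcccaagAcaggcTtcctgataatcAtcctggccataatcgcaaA
MAGEA12: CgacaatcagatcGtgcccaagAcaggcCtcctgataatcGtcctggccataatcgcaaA
Of all 100-base windows of the longest MAGEA3 transcript, 36.1% recur without a mismatch in another gene's transcript, and the same share holds for MAGEA6. Every one of these windows is shared between MAGEA3 and MAGEA6. Of the MAGEA12 windows, 0% recur at 100 bases and 8.76% at 50 bases, most often in MAGEA2, MAGEA2B or MAGEA3. Reads may therefore be divided between MAGEA3 and MAGEA6, while MAGEA12 reads of 100 bases would be its own. The sources used here give neither read length nor counter. With MAGEA3 and MAGEA6 summed, the counts were 297 in SNHG15 cells and 876 in vector cells, 2.55-fold lower (2.23 to 2.92). This sum does not depend on how reads were divided between them if each shared read was counted once, which is not known. With all 3 summed, the ratio was 0.389 (0.348 to 0.434). The MAGEA12 locus also overlaps CSAG4 on its own strand, which had 5 counts in SNHG15 cells and 6 in vector cells.

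The proportions of the paralogs were similar in the libraries. MAGEA6 had 1.61 times the counts of MAGEA3 in SNHG15 cells and 1.78 times in vector cells. MAGEA12 had 0.743 times the counts of MAGEA6 in SNHG15 cells and 0.734 times in vector cells. By the authors' FPKM, MAGEA12 and MAGEA6 did not differ beyond counting error in either library. The FPKM ratio was 1.06 (0.844 to 1.33) in SNHG15 cells and 1.05 (0.922 to 1.19) in vector cells. The lengths behind that FPKM are not those of their longest transcripts, which are near equal (1761 and 1762 bases). At such equal lengths the counts put MAGEA6 above MAGEA12 in both libraries. The other type I genes with values, MAGEA2, MAGEA2B, MAGEA9 and MAGEB17, had at most 4 counts in either library, too few to compare.

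The promoters of the genes that were lower, and of MAGEF1, which was higher, are given because CpG methylation of such windows is the known switch of cancer-testis genes; methylation was not measured. RefSeq windows on GRCh38.p14 span 300 bases about the first annotated start and end 50 bases after it, 5′ to 3′ on the gene's strand, and all 8 genes matched. Capitals mark CpG dinucleotides.
PRAME: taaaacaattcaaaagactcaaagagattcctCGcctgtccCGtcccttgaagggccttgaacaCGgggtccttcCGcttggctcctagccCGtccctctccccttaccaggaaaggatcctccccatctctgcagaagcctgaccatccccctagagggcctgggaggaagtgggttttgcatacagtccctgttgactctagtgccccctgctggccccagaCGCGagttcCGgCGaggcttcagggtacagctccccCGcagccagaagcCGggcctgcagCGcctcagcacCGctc
MAGEA3: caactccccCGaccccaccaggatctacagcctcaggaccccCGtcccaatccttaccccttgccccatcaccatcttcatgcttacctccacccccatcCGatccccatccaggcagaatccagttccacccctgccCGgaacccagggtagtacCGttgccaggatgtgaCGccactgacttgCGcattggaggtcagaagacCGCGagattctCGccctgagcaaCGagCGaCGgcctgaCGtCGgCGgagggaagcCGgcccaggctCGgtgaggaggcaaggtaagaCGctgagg
MAGEA12: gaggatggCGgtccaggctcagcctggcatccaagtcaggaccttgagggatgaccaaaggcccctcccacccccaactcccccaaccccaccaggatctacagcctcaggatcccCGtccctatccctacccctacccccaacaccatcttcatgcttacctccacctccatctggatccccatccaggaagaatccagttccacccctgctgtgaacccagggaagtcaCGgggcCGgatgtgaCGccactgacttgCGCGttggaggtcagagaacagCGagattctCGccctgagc
SPOCD1: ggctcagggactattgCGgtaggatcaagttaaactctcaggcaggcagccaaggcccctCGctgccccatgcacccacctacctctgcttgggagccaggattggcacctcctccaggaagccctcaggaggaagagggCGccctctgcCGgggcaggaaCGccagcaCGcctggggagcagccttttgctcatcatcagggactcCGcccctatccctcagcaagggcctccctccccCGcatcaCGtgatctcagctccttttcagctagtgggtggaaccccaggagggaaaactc
MAGEF1: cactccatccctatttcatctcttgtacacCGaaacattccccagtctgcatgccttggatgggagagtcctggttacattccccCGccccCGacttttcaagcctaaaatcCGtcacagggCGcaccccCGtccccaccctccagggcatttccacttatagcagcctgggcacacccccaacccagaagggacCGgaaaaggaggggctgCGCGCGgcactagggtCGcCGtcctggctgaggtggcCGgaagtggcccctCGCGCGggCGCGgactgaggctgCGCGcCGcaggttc
The windows are chr22:22559216-22559515 for PRAME, chrX:152698544-152698843 for MAGEA3, chrX:152733507-152733806 for MAGEA12, chr1:31815973-31816272 for SPOCD1 and chr3:184712015-184712314 for MAGEF1. The MAGEA6 window differs from that of MAGEA3 at 0 of 300 bases, so the window cannot tell the pair apart. PRAME held 13 CpG, MAGEA3 and MAGEA6 19 each, MAGEA12 and SPOCD1 9 each and MAGEF1 21, where the median over the first starts of 27305 genes was 14 and the quartiles were 3 and 28. The windows of the lower genes and of the higher gene all fell between those quartiles.

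The word CCGGAA, the core bound by many ETS factors, was searched on both strands. It occurs in the first-start windows of PRAME, MAGEA3, MAGEA6, MAGEF1 and MAGED1, and in 17.6% of all first-start windows. Among windows of later starts, that of MAGED2 holds it and those of PRAME, MAGED1 and MAGEA12 do not. The variant CCGGAT occurs in the MAGEA12 window and in 7.06% of windows. In the last 150 bases, MAGEA3 and MAGEA12 share the 24-base run ggatgtgacgccactgacttgcgc, which in MAGEA12 overlaps the CCGGAT match. Of all 27305 first-start windows 9 hold this run, and all 9 belong to the MAGEA cluster, among them MAGEA6, MAGEA2, MAGEA2B and CSAG1. Over the whole window, the longest run that MAGEA3 and MAGEA12 share is another, of 27 bases. It is held by 5 first-start windows, and that of CSAG1 is not among them. The 24-base run was picked after the sequences were seen and describes the windows only.

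CSAG1, a cancer-testis gene of another family, lies 44 bases from MAGEA12 on the opposite strand. CSAG1 had 112 counts (6.49 CPM) in SNHG15 cells and 357 counts (17.9 CPM) in vector cells, 2.75-fold lower (2.22 to 3.44). The intervals of CSAG1 and MAGEA12 overlap, and MAGEA12 had 1.21 times its counts in SNHG15 cells and 1.15 times in vector cells. The next gene with at least 1 CPM on the other side of MAGEA3 was GABRA3, which encodes a subunit of the GABA-A receptor and lies 247.4 kb away. GABRA3 had 36 counts (2.09 CPM) in SNHG15 cells and 131 counts (6.56 CPM) in vector cells, 3.14-fold lower (2.16 to 4.68).

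Lower ratios did not run through the whole neighbourhood. On the far side of MAGEA6, CETN2, a centrin of the centrosome, had 721 counts in SNHG15 cells and 679 in vector cells (ratio 1.23, 1.11 to 1.37). NSDHL, an enzyme of cholesterol synthesis, had 3058 counts in SNHG15 cells and 2980 in vector cells (1.19, 1.13 to 1.25). Of the 7 genes other than members that had at least 1 CPM within 500 kb of the cluster, 3 were lower (CSAG1, GABRA3 and PNMA6A, a gene of the paraneoplastic antigen family), 1 was higher (ZNF185) and their median log2 ratio was −0.52. Over the 437 genes of the X chromosome compared, 8.70% were lower and 19.7% higher, with a median log2 ratio of 0.11, against 0.02 over all genes compared. The type I genes thus lay on a chromosome with more genes higher than lower.

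**Figure D2:**
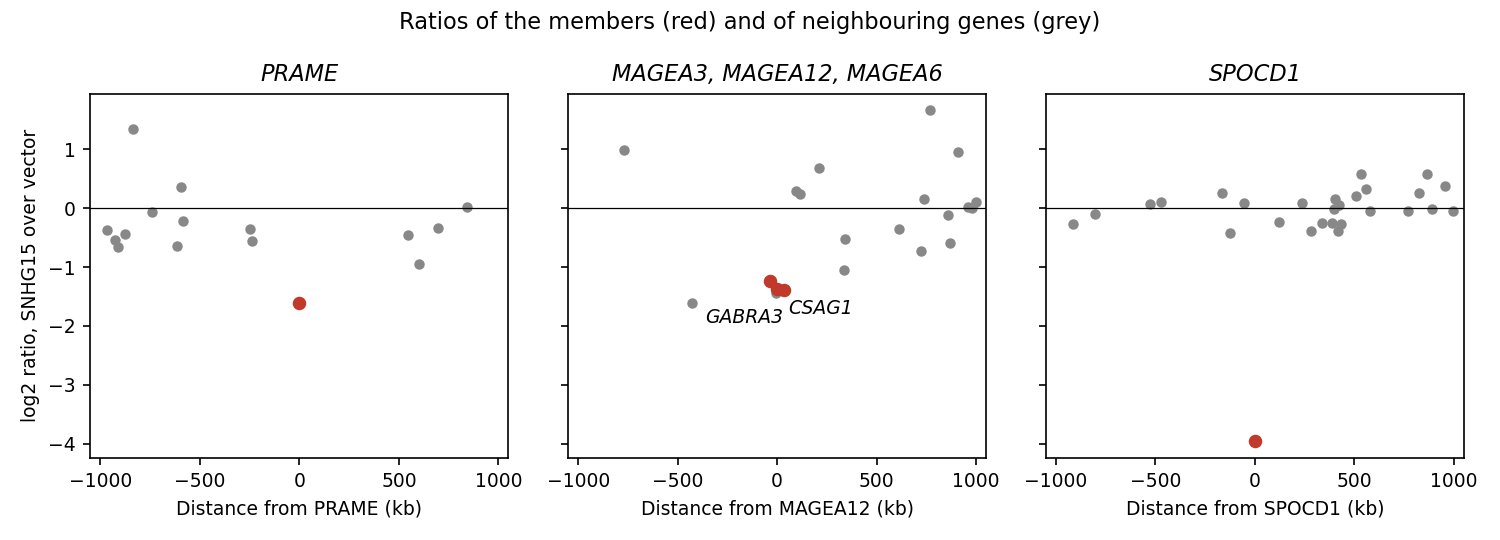
log2 ratio (SNHG15 over vector, prior count of 2) of members (red) and of neighbouring genes reaching a mean of 1 CPM (grey) by distance in kb from PRAME, MAGEA12 and SPOCD1. The 3 MAGEA genes lie between −1.24 and −1.40 beside CSAG1 at −1.45 and GABRA3 at −1.60; SPOCD1 lies at −3.96, and its 16 neighbours within 500 kb lie between −0.43 and 0.25.

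SPOCD1 (ENSG00000134668), on chromosome 1 (31790422 to 31816051, minus strand), was the member with the largest difference. It had 218 counts (12.6 CPM) in SNHG15 cells and 3957 counts (198.1 CPM) in vector cells. The ratio was 0.0638 (0.0554 to 0.0731), or 15.7-fold lower, and 22 of the 12934 genes compared had a lower ratio. By the authors' FPKM, SPOCD1 was at 0.772 FPKM in SNHG15 cells, above 25.6% of the genes compared. In vector cells it was at 11.2 FPKM, above 79.4%, and both places depend on the lengths the authors used. Its measured neighbours did not share the difference. Of its 16 neighbours within 500 kb that had at least 1 CPM, 0 were lower and 0 higher by the 1.5-fold rule, with log2 ratios between −0.43 and 0.25. The nearest were ADGRB2, an adhesion G protein-coupled receptor (ratio 1.06, 0.985 to 1.14), and PTP4A2, a phosphatase (0.851, 0.798 to 0.907).

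PRAME lies within the immunoglobulin lambda locus and had few measured neighbours. Of the 2 genes with at least 1 CPM within 500 kb, 0 were lower and 0 higher by the rule. BMS1P20, a pseudogene and the nearest of them, had 36 counts in SNHG15 cells and 62 in vector cells (0.672, 0.433 to 1.03). GNAZ, a G protein alpha subunit 511 kb away and the nearest on the other side, had 252 counts in SNHG15 cells and 398 in vector cells (0.733, 0.624 to 0.860).

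**Figure D3:**
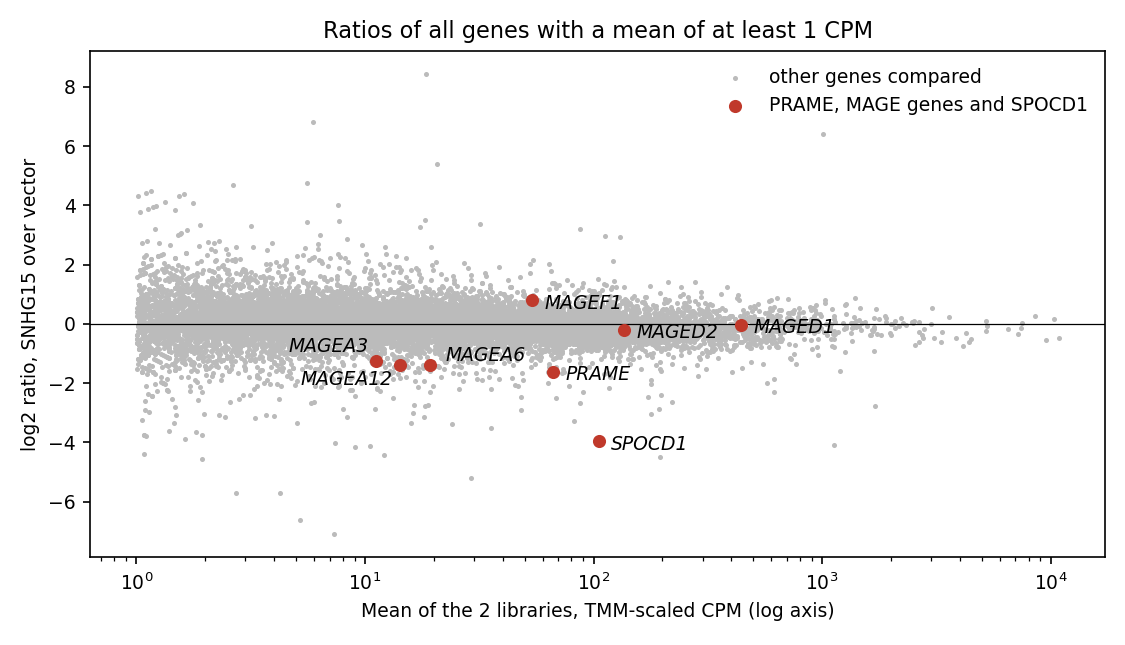
log2 ratio (SNHG15 over vector, prior count of 2) against the mean TMM-scaled CPM (log axis) of the 12934 genes compared (grey), with the 8 genes in red. SPOCD1 at −3.96 lies at the lower edge of the cloud, PRAME at −1.61 and the 3 MAGEA genes below most genes of like level, and MAGED1 and MAGED2 within it.

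Type II MAGE genes gave another picture. MAGED1 (ENSG00000179222; X, 51803007 to 51902357, plus strand), an adaptor of neurotrophin receptor signalling, had 7526 counts (436.2 CPM) in SNHG15 cells and 8933 counts (447.2 CPM) in vector cells. Its ratio was 0.975 (0.946 to 1.01) with TMM and 1.06 (1.03 to 1.09) by library totals, so no direction is given. MAGED2 (ENSG00000102316; X, 54807599 to 54816012, plus strand), which is needed for salt reabsorption in the fetal kidney, had 2190 counts (126.9 CPM) in SNHG15 cells and 2896 counts (145.0 CPM) in vector cells. Its ratio of 0.875 (0.828 to 0.926) was short of 1.5-fold, and by library totals, at 0.949, its interval included 1. The nearest measured genes of MAGED1 were NUDT11, an inositol phosphate phosphohydrolase (higher at 1.96, 1.28 to 3.05), and MAGED4B, and those of MAGED2 were TRO, itself a MAGE-related gene (1.30, 1.05 to 1.61), and GNL3L, a nucleolar GTPase (0.729, 0.647 to 0.822).

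MAGEF1 (ENSG00000177383; 3, 184710367 to 184712002, minus strand), which works with a ligase that removes an iron-sulphur cluster assembly factor, was the member that was higher. It had 1174 counts (68.0 CPM) in SNHG15 cells and 782 counts (39.1 CPM) in vector cells, a ratio of 1.74 (1.59 to 1.90). Both nearest measured neighbours by annotated coordinates were counted as higher, EIF2B5 only narrowly. The annotated EIF2B5 locus overlaps 12 genes on its own strand and 4 on the opposite strand, so its nearness to MAGEF1 depends on that annotation. EIF2B5, a translation initiation factor subunit, had 1253 counts in SNHG15 cells and 948 in vector cells (1.53, 1.41 to 1.67), which became 1.49 and lost the call with DESeq2 size factors or the vector library thinned. VPS8, of endosomal tethering, had 80 counts in SNHG15 cells and 48 in vector cells (1.93, 1.33 to 2.82). Of all 10 neighbours of MAGEF1 within 500 kb, 2 were higher and 0 lower.

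Of 11 type II genes listed, 7 had at least 1 CPM, of which 1 was lower (12.2% over all genes compared), 2 were higher (13.3%) and 4 neither. Their median log2 ratio was 0.19, against 0.02 over all genes compared. The median is that of MAGED4B, 1 of a pair of near-identical copies; with the pair summed as 1 gene it was 0.08, and with the GC trend removed it was 0.40. MAGEE1, a binding partner of dystrobrevin, was the lower gene, with 70 counts in SNHG15 cells and 123 in vector cells (0.659, 0.484 to 0.891); it was not counted as lower by library totals or with the trend of ratios on GC content or length removed. NSMCE3, a subunit of the SMC5/6 genome maintenance complex, had 277 counts in SNHG15 cells and 209 in vector cells (1.53, 1.28 to 1.85), and was not counted as higher with DESeq2 size factors (1.49) or the GC trend removed (1.40). MAGED4 and MAGED4B are near-identical copies, with 98.7% of the 100-base windows of MAGED4 found in MAGED4B, and are given as a sum of 1565 counts in SNHG15 cells and 1586 in vector cells (1.14, 1.06 to 1.23).

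The order of the members by the authors' FPKM differed between the libraries. The lengths behind this FPKM exceed the longest transcripts of MAGED1 (5418 bases) and SPOCD1 (3960 bases) but not that of MAGEF1 (1636 bases). The order between genes therefore rests on those lengths and differs per base of longest transcript. Per such base, SPOCD1 (198.1 CPM) and PRAME (100.7 CPM, 2831 bases) stood above MAGEF1 (39.1 CPM) in vector cells. In SNHG15 cells MAGED1 (436.2 CPM) stood above MAGEF1 (68.0 CPM) per such base. In the SNHG15 library MAGEF1 (43.3 FPKM) and MAGED1 (41.9 FPKM) led and did not differ beyond counting error (ratio 1.03, 0.972 to 1.10). MAGED2 (19.8 FPKM), PRAME (3.54 FPKM), MAGEA12 (2.33 FPKM), MAGEA6 (2.20 FPKM), MAGEA3 (1.66 FPKM) and SPOCD1 (0.772 FPKM) followed. In the vector library the order was MAGED1 (39.6 FPKM), MAGEF1 (23.0 FPKM), MAGED2 (20.8 FPKM), SPOCD1 (11.2 FPKM), PRAME (9.99 FPKM), MAGEA12 (5.63 FPKM), MAGEA6 (5.37 FPKM) and MAGEA3 (3.65 FPKM). By this FPKM, SPOCD1 stood above PRAME in vector cells and below all other members in SNHG15 cells. Steps of this order other than the 1 named and MAGEA12 to MAGEA6 exceeded counting error at the authors' lengths, while the spread between cultures is unknown.

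The genes nearest to PRAME in level over the 2 libraries, by Euclidean distance in log2 CPM, were ZNF703 (0.03), PLA2G15 (0.08) and SAMD11 (0.12). ZNF703, for example, had 577 counts in SNHG15 cells and 2026 in vector cells. Those nearest to SPOCD1 were RN7SL1 (0.49), RN7SL2 (0.98) and PADI2 (0.99). RN7SL1 and RN7SL2, which encode signal recognition particle RNA, had 261 and 281 counts in SNHG15 cells and 2966 and 7444 in vector cells. Each likeness rests on 2 values.

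The counts in this and the following lists stand beside 12.2% lower and 13.3% higher over all genes compared, and their medians beside 0.02. Of 46 X-linked cancer-testis genes outside the MAGE family, 4 had values and only CSAG1 reached 1 CPM. Of 30 autosomal testis-restricted genes 6 reached it, of which 2 were lower, 1 was higher and 3 neither, with a median log2 ratio of −0.27. By library totals HORMAD1 fell under 1 CPM and left the list, and the median of the others was 0.03. LY6K, a GPI-anchored antigen and the most abundant of them, had 1917 counts (111.1 CPM) in SNHG15 cells and 4604 counts (230.5 CPM) in vector cells, 2.07-fold lower (1.97 to 2.19). HORMAD1, a protein of the meiotic chromosome axis, had 9 counts in SNHG15 cells and 30 in vector cells (0.347, 0.145 to 0.750). SYCE2, of the synaptonemal complex, had 49 counts in SNHG15 cells and 32 in vector cells (1.77, 1.11 to 2.86). All 10 genes that are listed as cancer-testis but serve mitosis were measured, with 0 lower and 2 higher (0 with the GC trend removed): the spindle checkpoint kinase TTK (1.53, 1.22 to 1.91) and the kinetochore protein NUF2 (1.62, 1.19 to 2.21).

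For the cullin-2 ligase in which PRAME works, 15 of 15 genes were measured, with 1 lower, 3 higher and 11 neither, and a median log2 ratio of −0.03 that became 0.09 by library totals. The scaffold CUL2 had 186 counts in SNHG15 cells and 243 in vector cells (0.886, 0.728 to 1.08), while the adaptor subunit ELOB had 2790 counts in SNHG15 cells and 4888 in vector cells (0.661, 0.631 to 0.692). The lower call of ELOB was lost by library totals and with the GC or length trend removed. KLHDC2, another substrate receptor of the same ligase, had 316 counts in SNHG15 cells and 173 in vector cells (2.11, 1.75 to 2.56), and the receptors FEM1B and FEM1C were also higher (1.69, 1.25 to 2.29, and 1.63, 1.20 to 2.22), FEM1C not with the GC trend removed (1.46). For ligases bound by MAGE proteins, their reported targets and the SMC5/6 complex, 15 of 16 genes were measured, with 0 higher (1 by library totals) and a median log2 ratio of 0.01 that became −0.03 with DESeq2 size factors. TRIM28 had 8883 counts in SNHG15 cells and 11116 in vector cells (0.925, 0.900 to 0.951).

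Genes of retinoic acid receptor signalling, which PRAME is reported to repress, included some of the larger differences. Of 17 listed, 14 were measured, with 6 lower (12.2% over all genes compared), 0 higher (13.3%) and 8 neither, and a median log2 ratio of −0.47. With the GC trend removed 5 were lower and 2 higher and the median was −0.20, and by library totals 6 were lower and 2 higher. RARRES1, a retinoid-responsive gene, had 196 counts in SNHG15 cells and 1701 in vector cells (0.133, 0.114 to 0.155). The retinaldehyde reductase DHRS3 was 4.96-fold lower (4.78 to 5.14), the transglutaminase TGM2 3.95-fold (3.82 to 4.09) and the receptor RARB 2.43-fold (1.94 to 3.06). The receptor RARA itself, short of 1.5-fold, had 912 counts in SNHG15 cells and 1467 in vector cells (0.720, 0.662 to 0.782). This list was drawn up with earlier results of these libraries known.

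Of the 28 genes of DNA methylation and histone H3 lysine 9 silencing, 27 were measured, with 0 lower (12.2% over all genes compared), 10 higher (13.3%) and 17 neither, and a median log2 ratio of 0.38. By library totals 12 were higher, beside 18.4%. The de novo DNA methyltransferase DNMT3A had 580 counts in SNHG15 cells and 363 in vector cells (1.85, 1.62 to 2.11). ATF7IP, the partner of the methyltransferase SETDB1, had 206 counts in SNHG15 cells and 121 in vector cells (1.97, 1.57 to 2.49). The heterochromatin protein CBX1 and the methylcytosine dioxygenase TET3, which acts against methylation, were higher as well (1.67, 1.53 to 1.83, and 1.72, 1.43 to 2.07). The maintenance enzymes DNMT1 and UHRF1 were neither, at 0.850 (0.810 to 0.891) and 0.827 (0.766 to 0.893). In the polycomb complexes that hold germline genes silent, 13 of 13 genes were measured, with 0 lower and 2 higher, PCGF6 (1.69, 1.21 to 2.38) and MGA (1.58, 1.19 to 2.09). By library totals 4 were higher, and with the GC or length trend removed or a minimum of 5 CPM 1 was. MGA lost its call with either trend removed (1.44 and 1.42).

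Around SPOCD1, 5 of 24 genes of the germline piRNA pathway were measured, with 1 lower, 1 higher and 3 neither, and a median of −0.02 that became 0.10 by library totals. The higher gene was SPIN1, a reader of histone methylation that binds SPOCD1 in mouse, with 533 counts in SNHG15 cells and 175 in vector cells (3.53, 2.97 to 4.21). The tudor protein TDRD7 was lower, at 43 counts in SNHG15 cells and 93 in vector cells (0.535, 0.364 to 0.776). PIWIL2, an Argonaute of the pathway, had 2 counts in each library. Of 8 genes that share the SPOC or the TFIIS-like domain with SPOCD1, 7 were measured, with 0 higher and 1 lower, the elongation factor TCEA2 (0.662, 0.609 to 0.720), which was not counted as lower by library totals or with the GC trend removed.

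**Figure D4:**
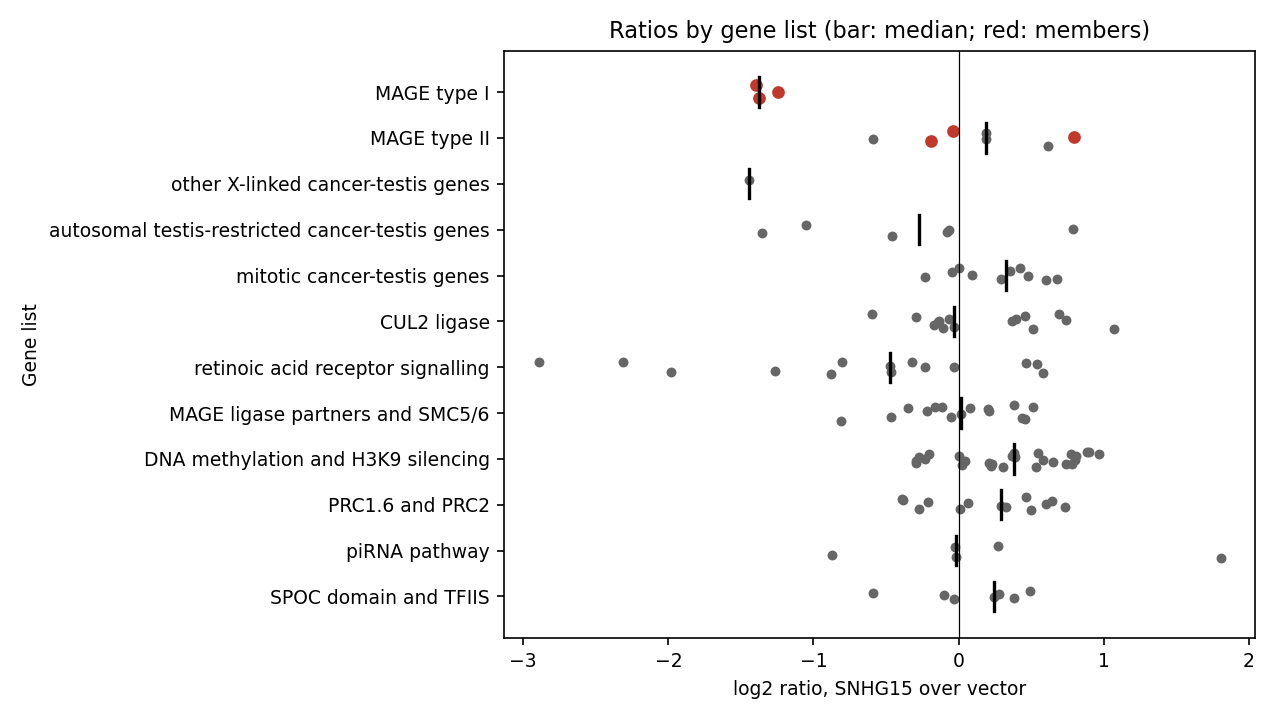
log2 ratio (SNHG15 over vector, prior count of 2) of the genes reaching a mean of 1 CPM in each list; dots are genes, red dots members, black bars medians. The type I MAGE genes and CSAG1 lie between −1.24 and −1.45, the type II genes have a median of 0.19 (0.08 with MAGED4 and MAGED4B summed), and the DNA methylation list has its median at 0.38.

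BT549 cells are mesenchymal in character, and 8 of 8 mesenchymal markers were measured, with 3 lower, 2 higher and a sum of 3631 CPM in SNHG15 cells and 3751 CPM in vector cells. CDH2, N-cadherin, was higher (5.28, 4.12 to 6.82) and FN1, fibronectin, lower (0.555, 0.542 to 0.568). SPARC was also higher (1.78, 1.74 to 1.82) and TWIST1 also lower (0.597, 0.542 to 0.658). Vimentin, VIM, was at 1998 CPM in SNHG15 cells and 1993 CPM in vector cells. Of 10 germ cell markers, 3 had values and 0 reached 1 CPM, with a summed 0 counts in SNHG15 cells and 9 in vector cells. DAZL, SYCP3 and TNP1 were at 0 counts in SNHG15 cells, where a count of 0 allows up to 0.174 CPM. Of 7 melanocyte markers 2 had values, summing to 3.01 CPM in SNHG15 cells and 2.85 CPM in vector cells. Of 7 blood markers 2 had values, summing to 8.17 CPM in SNHG15 cells and 17.7 CPM in vector cells, nearly all of it CD14, which was lower (0.444, 0.361 to 0.543). Of 8 breast epithelial and hormone receptor markers 5 had values, with a summed 794.4 CPM in SNHG15 cells and 1296 CPM in vector cells. Of the 3 that reached 1 CPM, 1 was lower, 0 higher and 2 neither. KRT18, an epithelial keratin, made up most of the sum, with 702.3 CPM in SNHG15 cells and 1200 CPM in vector cells (0.585, 0.573 to 0.598), while KRT8, its partner keratin, was at 0.718 (0.638 to 0.809) and GATA3, a luminal transcription factor, at 1.11 (1.02 to 1.21). The part of mesenchymal, epithelial or CD14 marker differences in the results was not tested. In RNA of whole cultures, fewer cells that express a gene and less RNA per cell cannot be told apart.

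In the authors' deposited table, PRAME, MAGEA3, MAGEA6, MAGEA12 and SPOCD1 were called lower in the SNHG15 cells and MAGED1, MAGED2 and MAGEF1 were not called. The log2 ratios of FPKM in the authors' deposited table were −1.50 for PRAME, −1.29 for MAGEA6, −1.27 for MAGEA12, −1.14 for MAGEA3 and −3.85 for SPOCD1. For MAGEF1 the authors' deposited table gave 0.91. Of the other genes described, EIF2B5, BMS1P20, NSMCE3, DNMT1, PIWIL4 and RN7SL2 overlap another gene on their own strand, so their counts are uncertain. EIF2B5 and PIWIL4 have overlaps on the opposite strand as well. Overlaps of SPARC and TWIST1 with other genes were not looked up. ELOB, GNAZ, KLHDC2, KRT8, KRT18, LY6K, MAGEB17, NUF2, RARA, RARB, RARRES1, RN7SL1, SAMD11, SYCE2, SYCP3, TGM2 and VIM overlap a gene on the opposite strand, from which their reads cannot be told apart if strand was not kept.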

How the data were processed

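The authors' deposited table holds raw counts per gene and FPKM for 1 library per group, per the file headers. Its log2 ratio, ratio of FPKM and adjusted p-value columns are the authors', and its p-values are not quoted. Per the submitters' processing notes the genome was hg38. For aligner, counter, strand and read length, nothing was given in the sources used here. The deposited subsets (1551, 622 and 929 genes) equal the full table in every row and were set aside. TMM factors (edgeR 4.0.16, R 4.3.3) came to 1.04 (SNHG15) and 0.960 (vector). With 1 library per group, edgeR's spread cannot be estimated, so no test was run. Genes compared had a median of 284 counts in SNHG15 cells and 315 in vector cells. Reads are not independent molecules, so intervals and the floor of 3 counts cover counting error only. Medians used a prior count of 2.

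GENCODE 29 on GRCh38 gave transcript GC content (99.7% of the genes compared) and shared windows; length came from the FPKM columns. The interval and calling functions were tested on simulated data. Members, lists and rules were chosen with earlier results of these data known. Named genes were the members, up to 4 genes of each list by interval bound, the nearest measured gene on each side of each member, and the nearest in level to PRAME and SPOCD1; CETN2, NSDHL, PNMA6A, ZNF185, CUL2, TRIM28, RARA, DNMT1, UHRF1, PIWIL2, VIM, KRT8, GATA3, CSAG4, PIWIL4, MAGED4 and the genes named at under 1 CPM were added after their values were seen. The lower count of the MAGE ligase partner list is not reported here. Alternatives tried were library totals, size factors of DESeq2 1.42.0, a minimum of 5 CPM or none, thinning of the vector library, GC or length trends removed by lowess (span 0.5), FPKM with pseudocounts of 1 and 0.1, and prior counts of 0.5 and 10.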

Additional observations from a re-analysis of the deposited data

How the results depend on the processing

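Of 56 ratios of members under other settings, 52 kept their direction and their side of the 1.5-fold rule. The other 4 were all of MAGED1, whose ratio of 0.975 became 1.06 by library totals, 1.01 with the GC trend removed and 1.06 from FPKM with either pseudocount. PRAME lay between 0.317 and 0.413 over the alternatives and MAGEF1 between 1.69 and 1.88. SPOCD1 lay between 0.0610 and 0.0783, except at 0.146 from FPKM with a pseudocount of 1, which exceeds its own 0.772 FPKM in SNHG15 cells. The count of members lower by 1.5-fold was 5 in every setting run except the sum of MAGEA3, MAGEA6 and MAGEA12 as 1 gene, where it was 3 by construction, and the omission of MAGEA12 (added after the data were seen), where it was 4. List medians moved by over 0.1 or changed sign in 45 of 144 cases and list counts by over 1.5 times in 31 of 224. The type II median of 0.19 was 0.08 with MAGED4 and MAGED4B summed (added after the data were seen). Among type II MAGE genes, 0 against 1 were lower by library totals and with the GC or length trend removed, and 1 against 2 higher with DESeq2 size factors and with the GC trend removed. In the cullin-2 list, 0 against 1 were lower by library totals and with the GC or length trend removed. In the retinoic acid list, 2 against 0 were higher by library totals and with the GC trend removed, and 1 with thinning or the length trend removed. In the polycomb list, 4 against 2 were higher by library totals, and 1 with the GC or length trend removed or a minimum of 5 CPM. Of the mitotic cancer-testis genes, 0 against 2 were higher with the GC trend removed and 1 with DESeq2 size factors, thinning or a minimum of 5 CPM. By library totals, 1 against 2 autosomal cancer-testis genes were lower, as HORMAD1 fell under 1 CPM. By the same scaling, 1 against 0 MAGE ligase partners were higher, and 0 against 1 SPOC or TFIIS genes were lower with 1 against 0 higher. With the GC trend removed, 0 against 1 SPOC or TFIIS genes were lower. At a minimum of 5 CPM, 1 against 2 autosomal cancer-testis genes were lower and 0 against 1 higher, and 0 against 1 piRNA genes lower. With no filter, 2 against 1 piRNA genes were higher and 2 against 1 epithelial markers lower. Apart from the filters, which change the genes counted, the cause was not tested. No paired analysis was possible because each group held 1 library, and no library could be left out. Depth limits the type I genes most: MAGEA3 rests on 114 counts in SNHG15 cells and 315 in vector cells.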

Other observations

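MAGED4 and MAGED4B, near-identical copies, were divided by the authors' counting in almost the same proportion in both libraries, 1039 to 526 counts in SNHG15 cells and 1053 to 533 in vector cells.

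PIWIL4, the Argonaute to which SPOCD1 is tied in mouse, had 5 counts in SNHG15 cells and 0 in vector cells. This was under the minimum of 1 CPM. Without that minimum PIWIL4 was counted as higher, with an interval from 1.06 upward. With the vector library thinned its interval ran from 0.843 upward and so included 1.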
